A study of Homo sapiens with 5 samples.

Results

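The Nrf2 peaks of BEAS-2B cells were compared between cells treated with iAs and control cells. The intervals were chosen by the library named beside each of them, and the intervals of the list merged over all libraries were left out. This gave 10947 Nrf2 intervals of the 29781 intervals of the 4 ChIP libraries, of which 3204 came from control cells and 7743 from iAs-treated cells. BEAS-2B is an immortalized line of human bronchial epithelial cells. Both cultures were kept without serum overnight, and 1 of them then received arsenic (iAs) at 1 μM for 6 h while the other was the untreated control. Chromatin was precipitated with an antibody against Nrf2, from Santa Cruz by the sample labels and from Active Motif by the methods of the study. The series has 5 samples, the other 3 being HIF1α ChIP in control and in iAs-treated cells and 1 input DNA whose label gives no treatment. The study asked where iAs places Nrf2 on the genome. Each condition is 1 library from 1 cell line, so no difference between control and iAs has a replicate check, none was tested, and treatment and library cannot be told apart. The intervals carry no height or score and the read depth behind them is unknown, so peaks were compared by presence, position and width. More cells with Nrf2 on a site and more Nrf2 on the site in each cell cannot be told apart in such data.

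Nrf2, the product of NFE2L2, is a transcription factor that Keap1 holds in the cytoplasm and hands to the proteasome in unstressed cells. Electrophiles and arsenic disturb this hold, and Nrf2 then enters the nucleus, pairs with a small Maf protein and binds the antioxidant response element (ARE). Its established targets supply glutathione and thioredoxin, reduce quinones, degrade heme, store iron and regenerate NADPH. The ARE core reads TGACNNNGC, where N is any base, and its frequent form TGACTCAGC holds within it TGACTCA, the site of the AP-1 family.

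The core was present in the Nrf2 peaks of most of the established target genes that were read in full, and in most of the widest peaks called with iAs only. The whole interval was searched, which held the core in 53.2% of all control peaks shared with iAs and 35.6% of all iAs-only peaks. The peaks read here were the widest of their gene or class, and a longer interval has more room for a match. The following sequences show the match nearest to the centre of the widest control peak of each gene, all of them in peaks that were also called with iAs. They are written 5′ to 3′ on the strand of the match, on GRCh37 (hg19), with the 9 bases of TGACNNNGC in capitals and 15 bases on each side.
NQO1, chr16:69760895-69760933, minus strand, upstream of the gene: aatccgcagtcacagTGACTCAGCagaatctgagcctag
HMOX1, chr22:35773134-35773172, minus strand, upstream: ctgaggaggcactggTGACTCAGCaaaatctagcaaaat
GCLC, chr6:53413032-53413070, plus strand, upstream: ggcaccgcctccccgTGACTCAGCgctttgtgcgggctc
GCLM, chr1:94374997-94375035, plus strand, at the start site: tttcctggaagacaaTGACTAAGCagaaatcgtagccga
FTL, chr19:49467184-49467222, plus strand, upstream: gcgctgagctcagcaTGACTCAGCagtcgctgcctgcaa
FTH1, chr11:61739541-61739579, minus strand, upstream: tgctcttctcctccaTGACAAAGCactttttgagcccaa
SQSTM1, chr5:179246570-179246608, minus strand, upstream: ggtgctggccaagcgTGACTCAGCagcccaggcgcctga
ME1, chr6:84140884-84140922, minus strand, upstream: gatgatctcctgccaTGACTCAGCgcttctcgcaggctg
MAFG, chr17:79881478-79881516, plus strand, intron 1: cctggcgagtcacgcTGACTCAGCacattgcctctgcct
TXNRD1, chr12:104613277-104613315, minus strand, intron 1: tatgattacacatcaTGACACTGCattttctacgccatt
SLC7A11, chr4:139156835-139156873, plus strand, intron 2: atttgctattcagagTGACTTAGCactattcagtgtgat

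No match was found in the control peaks of SRXN1 and OSGIN1. Among the 8 widest peaks that were called with iAs only, 6 held the core and those at ERG and TXN did not. The next lines show 5 of the 6, each named by the gene with the nearest start site, to set them beside the sites that were occupied in both libraries.
TALDO1, chr11:746496-746534, plus strand, upstream: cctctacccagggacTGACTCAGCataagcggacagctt
AP001421.1, chr21:38936828-38936866, minus strand, downstream: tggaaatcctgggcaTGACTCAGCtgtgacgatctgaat
AKR1B1, chr7:134133582-134133620, minus strand, intron 5: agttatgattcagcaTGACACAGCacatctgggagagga
FBXO30, chr6:146134661-146134699, minus strand, intron 1: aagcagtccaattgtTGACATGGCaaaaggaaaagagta
CEBPB, chr20:48925257-48925295, plus strand, downstream: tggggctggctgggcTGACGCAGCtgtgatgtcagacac
A match describes the letters of the window and does not show that Nrf2 sat on it.

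Nearly all control sites were also called with iAs, and most sites called with iAs were absent from the control list. Of the control peaks, 3032 overlapped an iAs peak by at least 1 bp and 172 did not, the latter being 5.37% of the list (95% Wilson interval 4.64 to 6.20%). Of the iAs peaks, 2939 overlapped a control peak and 4804 did not, which is 62% of the list (61.0 to 63.1%). These intervals, like all intervals given for shares, cover the counting of peaks only. When the iAs list was reduced to its 3204 widest peaks, 30.0% of them overlapped no control peak and 73.1% of the control peaks overlapped one of them.

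The peaks called with iAs only were narrow. Their median width was 267 bp (264 to 271), against 575 bp (561 to 587) for the iAs peaks that overlapped a control peak. When the iAs list was divided into 5 width classes of equal number, 6.20% of the narrowest class (181 to 223 bp) overlapped a control peak, 27.8% of the middle class and 87.3% of the widest class (605 to 3755 bp). The same order held in the control list, where 86.3% of the narrowest class and 99.8% of the widest overlapped an iAs peak. The smallest peak was 189 bp in control and 181 bp in iAs-treated cells. A single peak among the 640 widest control peaks had no iAs peak, and it lay in intron 1 of ARHGEF12, was 491 bp wide and stood 67.1 kb from the nearest iAs peak.

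**Figure D1:**
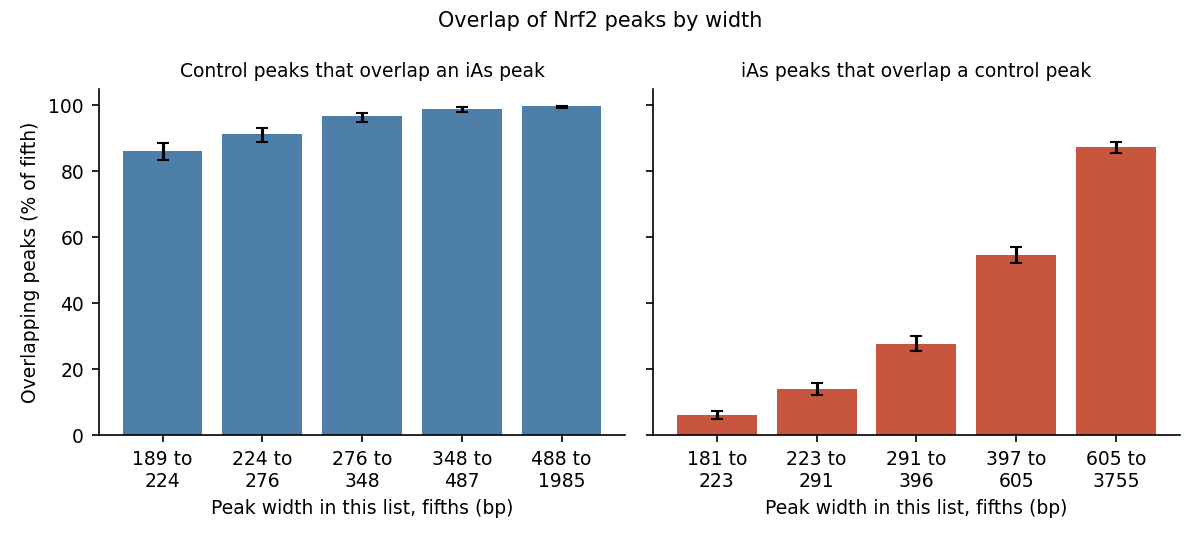
Share of Nrf2 peaks that overlap a peak of the other library (y axis, %), by 5 classes of peak width (x axis, bp), for control peaks (left) and iAs peaks (right). Bars are shares of about 641 control or 1549 iAs peaks and lines are Wilson 95% intervals. The share climbs from 86.3 to 99.8% in control cells and from 6.20 to 87.3% with iAs.

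The 172 control-only peaks were narrow as well, with a median of 222 bp (212 to 230) and a largest width of 491 bp. The 8 widest of them lay nearest to the start sites of ARHGEF12, TPST1, BRAF, NSG2, VXN, H4C3, HNRNPLL and GUK1. BRAF, a kinase of the MAPK cascade, had a control-only peak of 424 bp at -0.25 kb from its start site, and the histone gene H4C3 one of 367 bp in its exon 1. The control-only peaks lay at a median of 40.9 kb from the nearest iAs peak, and 21 of them within 1 kb of one. The iAs-only peaks were farther from the other list, at a median of 95.6 kb from the nearest control peak, with 424 within 1 kb (8.83%) and 979 within 10 kb (20.4%). The lists differ in size by more than 2 times, so these distances are not directly comparable.

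Where both libraries had a peak, the iAs peak was the wider one at most sites. Overlapping peaks formed 2932 groups, of which 2833 were pairs of 1 control and 1 iAs peak. In 92 groups 1 iAs peak spanned several control peaks, and in 7 groups 1 control peak spanned several iAs peaks. The median width of the pairs was 315 bp (309 to 323) in control cells and 566 bp (549 to 578) with iAs. The iAs peak was wider in 2598 pairs (91.7%) and narrower in 230, with a median ratio of 1.63 (1.6 to 1.66). It was at least 1.5 times as wide in 1652 pairs, or 58.3%, whereas the control peak was at least 1.5 times as wide in 13, or 0.459%. In 2129 pairs (75.2%) the iAs peak contained the whole control peak. The centres of a pair lay 54 bp apart at the median (51 to 57), and more than 250 bp apart in 80 pairs. The order of the ratios over peak width depended on the width used for the classes. With 5 classes of control width, which is the ratio's own denominator, the median was 1.77 in the narrowest and 1.45 in the widest. With 5 classes of the geometric mean of both widths it was 1.29 in the narrowest and 1.72 in the widest.

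**Figure D2:**
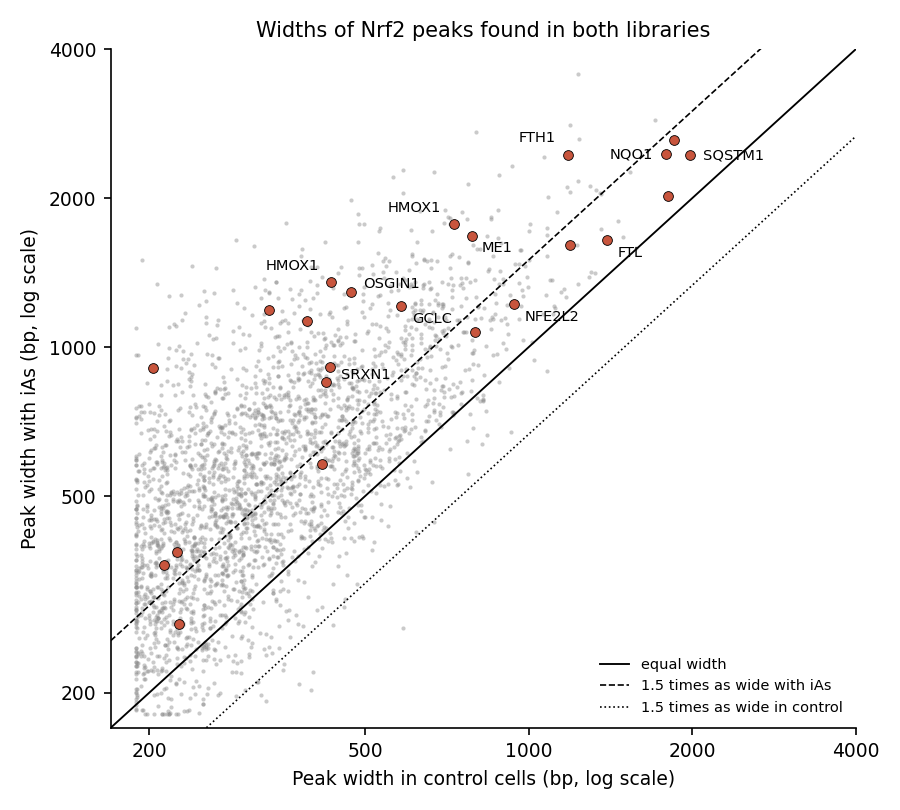
Width of each of the 2833 Nrf2 peak pairs in control cells (x axis, bp, log scale) and with iAs (y axis, bp, log scale). Each grey point is a pair, red points are the 23 pairs at the 16 genes read in full, and lines mark equal width and 1.5-fold differences. Of all pairs, 2598 lie above the line of equal width, and all 23 red points do.

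The 8 pairs with the largest ratios included sites at a histone gene, a stress gene and an exporter. A peak of 194 bp in control and 1500 bp in iAs-treated cells, 7.73 times as wide, lay downstream of HIST1H4B on chromosome 6. GADD45A, which is induced by DNA damage and stress, carried a peak in intron 2 of 207 bp in control and 1342 bp in iAs-treated cells. In exon 2 of ABCC2, an exporter of glutathione conjugates, the widths were 266 and 1446 bp. The other 5 of the 8 largest ratios lay nearest to TNFSF18, SEC22A, RAPGEF1, TTC32 and ACKR3 and ran from 5.58 to 6.09. The smallest ratio was 0.462, at a site 321 kb from the start site of IRS1. It was followed by sites nearest to SLC4A3, SCHIP1, PIEZO2, PLA2G4A, CDCP1, ASXL1 and PXDC1, with ratios from 0.511 to 0.629. With the whole interval searched, 0 of the iAs peaks at these 8 smallest ratios, of 193 to 274 bp, held TGACTCAGC. Of the 8 with the largest ratios, of 1094 to 1644 bp, 3 did. A longer interval has more room for a match, so these counts are not directly comparable. The whole-interval share was 31.8% over all shared iAs peaks. Of those of 150 to 250 bp, 10.5% held it within 100 bp of the centre.

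Sites called with iAs only held the Nrf2 motif less often than sites called in both libraries, and more often than the neighbouring genome. TGACTCAGC was found within 100 bp of the centre of 24.9% (23.4 to 26.5%) of the control peaks shared with iAs, 19.4% (18 to 20.9%) of the iAs peaks shared with control and 13.3% (12.4 to 14.3%) of the iAs-only peaks. Of the control-only peaks, 4.07% (1.99 to 8.16%) held it. Both strands were searched, and among the same windows moved by 5 kb the shares were 0.198, 0.170, 0.291 and 0%, where 0 of 172 windows allows up to 2.18%. The shared control and shared iAs peaks are largely the same sites, so their Wilson intervals are not those of separate groups. With the whole interval searched, 30.3 and 31.8% of them held TGACTCAGC, the opposite order. The Wilson interval of the iAs-only peaks lies below both. The looser core TGACNNNGC, which includes the former, was in 43.9, 35.7, 29.1 and 16.3% of the windows, in the same order, against 5.81 to 6.79% in the windows 5 kb away. The AP-1 site TGACTCA, which TGACTCAGC includes, was in 49.2, 40.9, 36.8 and 23.8%, against 3.33 to 4.07%. Among the wider 50% of each class, TGACTCA was in 34.4% of the shared iAs peaks and 37.7% of the iAs-only peaks, the opposite order.

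In the windows with an AP-1 site, the site was less often extended to the ARE form in the iAs-only peaks. Of 1491 windows of shared control peaks with TGACTCA, 50.7% (48.2 to 53.2%) also held TGACTCAGC. The share was 47.4% (44.6 to 50.2%) for shared iAs peaks and 36.2% (34 to 38.4%) for iAs-only peaks. Windows with neither TGACTCA nor TGACNNNGC made up 36.1% of the shared control peaks, 46.0% of the shared iAs peaks and 50.5% of the iAs-only peaks. CATTCC, the site of the TEAD factors of the Hippo pathway, was found at a similar level in each class, between 20.4 and 23.8%, against 5.81 to 10.9% in the windows 5 kb away. With the whole interval searched it was in 44.9% of the shared iAs peaks, 33.8% of the shared control peaks and 27.8% of the iAs-only peaks. The median widths of these classes had the same order, 575, 318 and 267 bp, and a longer interval has more room for a match.

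**Figure D3:**
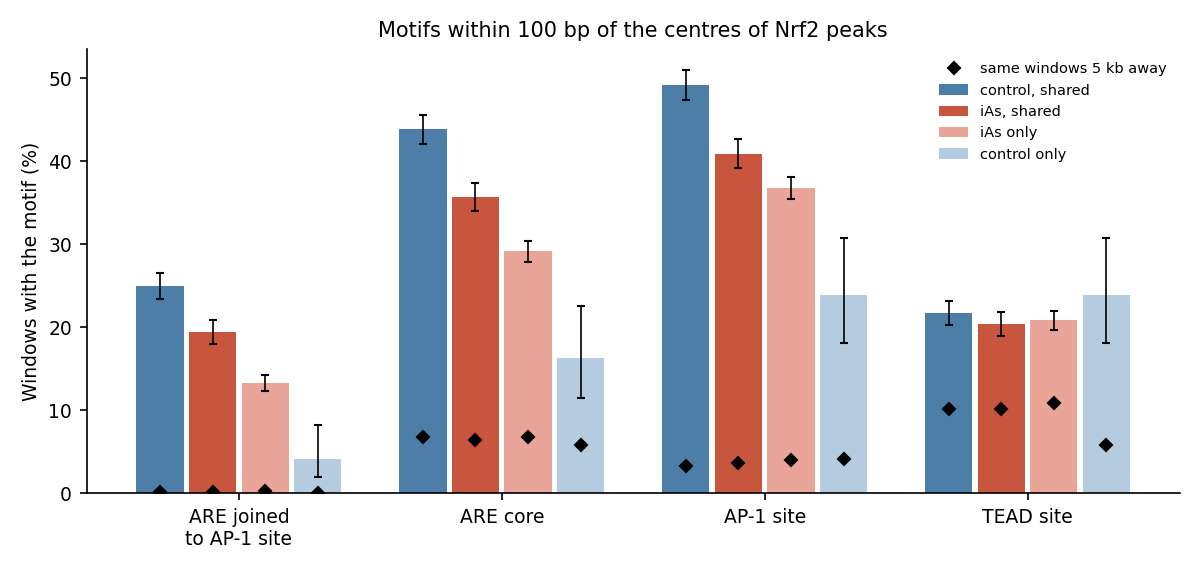
Share of Nrf2 peak windows (y axis, %) with TGACTCAGC (ARE joined to AP-1 site), TGACNNNGC (ARE core), TGACTCA (AP-1 site) or CATTCC (TEAD site) within 100 bp of the centre. Bars are the 4 classes of peaks with Wilson 95% intervals and diamonds are the same windows moved by 5 kb. The ARE and AP-1 shares are 24.9, 43.9 and 49.2% in control peaks shared with iAs and 13.3, 29.1 and 36.8% in iAs-only peaks, while the TEAD share lies between 20.4 and 23.8% in each class.

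Width was tied to the motif shares. Among peaks of 150 to 250 bp, TGACTCAGC was in 10.5% (6.82 to 15.8%) of the shared iAs peaks and in 11.7% (10.4 to 13.2%) of the iAs-only peaks. Among peaks of 350 to 500 bp the shares were 21.3% (18.3 to 24.6%) and 15.9% (13.6 to 18.5%), and at 500 to 800 bp they were 19.96% (17.5 to 22.6%) and 15% (11.8 to 18.9%). For TGACTCAGC the Wilson intervals of the classes overlapped in each width range. For TGACNNNGC they overlapped except at 500 to 800 bp, with 35.3% (32.4 to 38.4%) of the shared iAs peaks against 27.1% (22.9 to 31.8%) of the iAs-only peaks. For TGACTCA they did not at 250 to 350 bp, with 49.0% (43.9 to 54.2%) of the shared iAs peaks against 39.4% (37.0 to 41.9%) of the iAs-only peaks, nor at 350 to 500 bp, with 51.5% (47.6 to 55.3%) against 39.1% (35.9 to 42.5%), nor at 500 to 800 bp, with 39.4% (36.3 to 42.5%) against 30.3% (25.9 to 35.1%). Over the whole interval, the median distance of the match from the centre was 72 bp in shared iAs peaks and 42 bp in shared control peaks. A wider interval allows larger distances, so these values are not directly comparable. With the whole interval searched, 31.8% of the shared iAs peaks, 30.3% of the shared control peaks and 15.5% of the iAs-only peaks held TGACTCAGC.

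Nrf2 peaks close to a start site differed from the distant ones in both libraries. Peak centres lay within 1 kb of the start site of a protein-coding gene for 11.6% (10.5 to 12.8%) of the shared iAs peaks and 12.0% (11.1 to 13.0%) of the iAs-only peaks, and the median distances were 39.0 kb and 37.7 kb. Of the 578 iAs-only peaks within 1 kb of a start site, 3.81% (2.53 to 5.70%) held TGACTCAGC, against 14.6% (13.6 to 15.7%) of the 4226 farther away. For shared control peaks the shares were 10.3% (7.52 to 13.9%) and 26.8% (25.2 to 28.6%). HIF1α peaks of iAs-treated cells overlapped 68.7% (64.8 to 72.3%) of the iAs-only Nrf2 peaks near a start site and 6.60% (5.89 to 7.39%) of those farther away. Beside this, a HIF1α peak of iAs-treated cells lay within 1 kb of 42.6% of all 20163 start sites, and an Nrf2 peak within 1 kb of 5.17%. The part of HIF1α sites in these Nrf2 peaks was not tested.

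Over all distances, the HIF1α list of control cells overlapped more of the Nrf2 peaks than the longer list of iAs-treated cells did. It overlapped 27.7% (26.1 to 29.3%) of the shared control peaks and 20.3% (19.2 to 21.5%) of the iAs-only peaks. The HIF1α list with iAs overlapped 14.4% (13.2 to 15.7%) and 14.1% (13.1 to 15.1%). Within 1 kb of a start site the order was the opposite, with 56.3% (control HIF1α list) and 72.9% (HIF1α list with iAs) of the shared control peaks and 37.9 and 68.7% of the iAs-only peaks. The lists have this order at start sites in general. Of all 20163 start sites, 16.7% had a peak of the control HIF1α list within 1 kb and 42.6% one of the HIF1α list with iAs.

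At the 16 genes of the Nrf2 response that were read in full, 28 of 29 control peaks overlapped an iAs peak, and 12 genes had an iAs-only peak as well. NQO1, OSGIN1, MAFG and KEAP1 had none. Positions are given from the start site of the canonical transcript, negative values being upstream, and peaks were counted in the gene body and the 10 kb around it. Together these genes had 49 iAs peaks, of which 24 overlapped no control peak. The summed peak width was larger with iAs at 16 of 16 genes, and all 23 pairs were wider with iAs, by 1.12 to 4.46 times. For comparison, 94.6% of all control peaks overlapped an iAs peak and 62% of all iAs peaks overlapped no control peak. Of all pairs, 91.7% were wider with iAs, and of all groups of overlapping peaks 91.9% had a larger summed width with iAs. The counts of overlapping control peaks and of wider pairs at the 16 genes lie near these shares, and 24 of 49 is below the 62%. The summed width at a gene also counts its iAs-only peaks, whereas the groups hold overlapping peaks only. Those 2 measures are not directly comparable. An iAs-only peak lay within 10 kb of 13.7% of all protein-coding genes, of which 80.0% had no peak in either library. At 9 of the 16 genes an iAs-only peak was centred within 1 kb of the start site. Of all 20163 start sites, 5.17% had an iAs peak, shared or iAs-only, within 1 kb. The 16 genes had 11 such iAs-only peaks. Of these, 8 overlapped a HIF1α peak of iAs-treated cells, and 0 held TGACTCAGC in the whole interval. Over all iAs-only peaks within 1 kb of a start site, 68.7% overlapped such a HIF1α peak, which is near the count here. TGACTCAGC was within 100 bp of the centre in 3.81% of them, a different window.

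**Figure D4:**
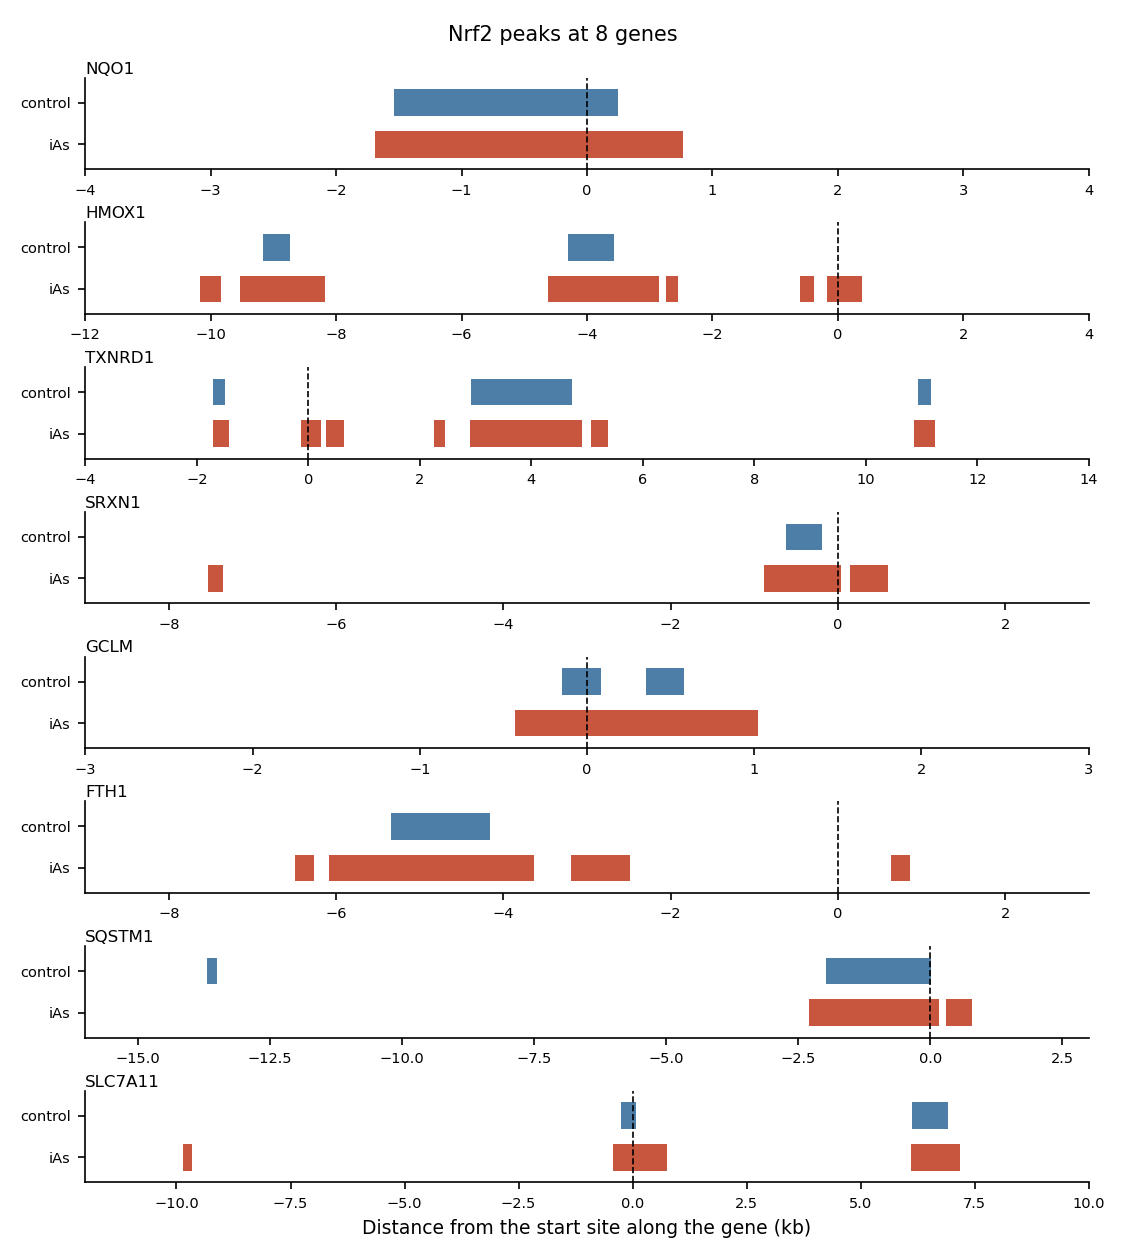
Nrf2 peaks of control cells (blue) and iAs-treated cells (red) at 8 genes, by distance from the start site along the gene (x axis, kb, with the start site dashed). Bars are drawn from the start to the end of each interval, and peaks outside the shown range are left out, among them 6 control peaks farther into TXNRD1. The red bars overlap each blue bar except that at -13.6 kb from SQSTM1, and further red bars appear at the start sites of HMOX1, TXNRD1 and SRXN1.

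Among the regulators of the pathway, Keap1 and the gene of Nrf2 itself had 1 intronic site each in control cells. The KEAP1 peak in intron 1 was 1189 bp wide in control and 1612 bp in iAs-treated cells. NFE2L2 had a peak of 939 bp in intron 1 in control cells that was 1222 bp wide with iAs, and a second peak of 296 bp at -0.166 kb with iAs only. Nearest to SQSTM1, which encodes p62, an autophagy receptor that binds Keap1, lay the widest control peak of the list, which spanned 1985 bp upstream of the gene and 2447 bp with iAs. SQSTM1 also had a control-only peak of 189 bp at -13.6 kb and an iAs-only peak of 479 bp in intron 1. MAFG, a small Maf partner of Nrf2, had 2 peaks in intron 1, of 424 and 390 bp in control cells and of 850 and 1130 bp with iAs. BTRC, the substrate receptor of a ubiquitin ligase that targets Nrf2, had a single peak of 288 bp in control cells and none with iAs.

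Among the glutathione genes, GCLM encodes the modifier subunit of glutamate-cysteine ligase. At its start site, 2 control peaks of 232 and 227 bp stood where 1 iAs peak spanned 1451 bp. GCLC, the catalytic subunit, had a peak at -3.16 kb of 583 bp in control and 1209 bp in iAs-treated cells. It had 2 iAs-only peaks, of 196 bp over its first exon and of 695 bp at -70.8 kb within a longer transcript. SLC7A11, the cystine transporter, had a peak of 332 bp at its start site in control cells that was 1190 bp wide with iAs, while its intron 2 peak measured 796 and 1072 bp. ABCC1, an exporter of glutathione conjugates and of arsenic bound to glutathione, had 3 control peaks and 10 iAs peaks, 7 of them iAs-only.

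TXNRD1, which encodes thioredoxin reductase, had the most control peaks of these genes, 9, and 12 with iAs. Each of the 9 control peaks overlapped an iAs peak. The widest, in intron 1, was 1808 bp in control and 2016 bp in iAs-treated cells, and in intron 3 a single iAs peak of 3356 bp covered 3 control peaks of 1155, 222 and 765 bp. Over exon 1 a peak of 361 bp was called with iAs only. SRXN1, the gene of sulfiredoxin, which repairs oxidized peroxiredoxins, had 1 control peak of 431 bp at -0.402 kb that was 912 bp wide with iAs, and iAs-only peaks of 453 bp in intron 1 and 181 bp at -7.44 kb. In TXN, the gene of thioredoxin, an iAs-only peak of 1119 bp in intron 1 lay 0.158 kb from the nearest control peak and was among the 8 widest iAs-only peaks.

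HMOX1, the heme oxygenase, had 2 control peaks, both upstream, and 6 iAs peaks. The peak at -8.95 kb was 433 bp wide in control and 1353 bp in iAs-treated cells, and that at -3.93 kb 728 and 1773 bp. Peaks at -0.488 and 0.101 kb from the start site, of 217 and 560 bp, were called with iAs only. The distal peak holds 3 copies of TGACTCAGC in the following stretch, where capitals mark GCTGAGTCA, its reverse complement. The stretch also holds gctaagtca, a match of the looser core TGACNNNGC. That core had 4 matches in the control peak and 5 in the iAs peak.
HMOX1 distal peak, chr22:35767997-35768122, plus strand: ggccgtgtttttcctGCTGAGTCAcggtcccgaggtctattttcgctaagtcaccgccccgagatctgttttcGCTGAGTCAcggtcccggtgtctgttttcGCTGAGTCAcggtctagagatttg
The ferritin genes had upstream sites in both libraries. At FTL, the light chain, the peak at -1.17 kb was 1393 bp wide in control and 1645 bp in iAs-treated cells, and 2 peaks of 266 and 255 bp were called with iAs only. FTH1, the heavy chain, had a peak at -4.76 kb of 1181 bp in control and 2447 bp in iAs-treated cells, and 3 iAs-only peaks of 231, 706 and 232 bp.

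NQO1, the quinone reductase, had 1 peak in each library, over its start site, of 1787 bp in control and 2455 bp in iAs-treated cells. At ME1, the NADPH-forming malic enzyme, the promoter peak measured 785 and 1680 bp, and at OSGIN1 471 and 1290 bp. AKR1B1, an aldose reductase, had 0 control peaks and 2 iAs peaks, the wider of 1194 bp in intron 5, at 84.1 kb from the nearest control peak. TALDO1, the transaldolase of the pentose phosphate pathway, had an iAs-only peak of 1158 bp at -0.73 kb beside a shared peak.

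Over the genome, 2142 protein-coding genes had a control peak within 10 kb, which is 10.6% of 20163 genes, and 3950 had an iAs peak, which is 19.6%. An iAs-only peak lay within 10 kb of 2763 genes (13.7%). An iAs peak without any control peak was found at 1899 genes (9.42%), and the reverse at 91 genes (0.451%). When the iAs list was reduced to its 3204 widest peaks, 455 genes had an iAs peak without a control peak and 432 the reverse. The reduced iAs list reached 2165 genes and the control list 2142, so these counts had to be close. They do not show what accounts for the imbalance of the full lists. Of the 2051 genes with a peak in both libraries, 831 had more peaks with iAs, 1164 the same number and 56 fewer. The genes with the most iAs peaks were ADAM12 with 14 against 6 in control cells, DST with 12 against 4, TXNRD1, DLGAP1 with 11 against 6, and ABCC1, AOPEP and VMP1 with 10 each against 3, 4 and 5. BCAR3, an adaptor of integrin signalling, had 9 against 1. Many of these genes are long, and DLGAP1 spans 959 kb.

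Gene lists of the Nrf2 response were already occupied in control cells. Of 17 genes of glutathione synthesis, use and export, 10 had a control peak and 11 an iAs peak, GPX1 being the gene with an iAs peak alone. For heme and iron handling the counts were 8 and 9 of 12 genes, with TFRC having an iAs peak alone, and for the thioredoxin system 4 and 5 of 10, with TXNRD2. Quinone, aldo-keto and carbonyl reduction had 8 and 11 of 14 genes, with AKR1B1, AKR1C2 and CBR3 having iAs peaks alone, and the NADPH genes 4 and 5 of 8, with PGD. Nrf2, its partners and its regulators had 10 of 14 in each library, NFE2L1 having a peak with iAs only and BTRC in control only. These shares exceed those over all genes (10.6 and 19.6%), but several of these genes are known to be Nrf2 targets and entered the lists for that reason. High control shares were not particular to these lists. A control peak was found at 60% of the Hippo pathway targets, 52.9% of the actin and focal adhesion genes and 41.2% of the glycolysis genes. The other lists outside the response had 20 to 33.3%, and the olfactory receptors 1.21%.

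The proteasome list held the most genes with an iAs peak alone among the 15 lists. Of 31 subunit genes, 7 had a control peak and 16 an iAs peak, and the 9 genes with an iAs peak alone were PSMA5, PSMB5, PSMB6, PSMB7, PSMC1, PSMC3, PSMC5, PSMD3 and PSMD4. Such genes made up 29.0% of the list and 9.42% of all genes. Their widest iAs peaks spanned 235 to 433 bp, and at 8 of the 9 genes the peak was centred within 500 bp of the start site, against 363 of the 1899 genes over the genome (19.1%). TGACTCAGC was in the peak of 1 of the 9, PSMA5. Of the 16 subunit genes with an iAs peak, 12 had one that overlapped a HIF1α peak of iAs-treated cells. Over all Nrf2 peaks within 1 kb of a start site, this share was 75.6% for shared iAs peaks and 68.7% for iAs-only peaks, which is near that of the subunit genes, and the part of HIF1α sites in these peaks was not tested. Subunits with a peak in both libraries included PSMD1, of 1064 and 1168 bp, PSMA1, of 668 and 820 bp, and PSMD14, of 248 and 681 bp.

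In lists outside the Nrf2 response, the share of genes with an iAs peak alone was 23.5% for actin cytoskeleton and focal adhesion genes and 20% for Hippo pathway targets. It was 8.33 to 11.8% for the glycolysis, EGF receptor, hypoxia, AP-1 and arsenic lists, near the 9.42% of all genes. Actin cytoskeleton and focal adhesion genes had 9 and 13 of 17 with a peak, with ACTN1, VCL and LAMB3 among the 4 that had iAs peaks alone. MYH9, the heavy chain of non-muscle myosin, had 2 control and 6 iAs peaks. Hippo pathway targets had 6 and 8 of 10, with CCN1 and LATS2 having iAs peaks alone, and AMOTL2 had 1 control peak of 189 bp and 6 iAs peaks. Glycolysis genes had 7 and 9 of 17, EGF receptor and ligands 2 and 3 of 9, hypoxia factor subunits and oxygen sensors 2 and 3 of 10, and the AP-1 family 3 and 4 of 10. FOSL1, of the AP-1 family, had 2 control and 3 iAs peaks. Of 12 genes of arsenic transport and methylation, 4 had a control peak and 5 an iAs peak, and AS3MT, the arsenic methyltransferase, had none within 10 kb. Olfactory receptor genes, which bronchial cells are not known to use, had a peak at 5 and 6 of 414.

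**Figure D5:**
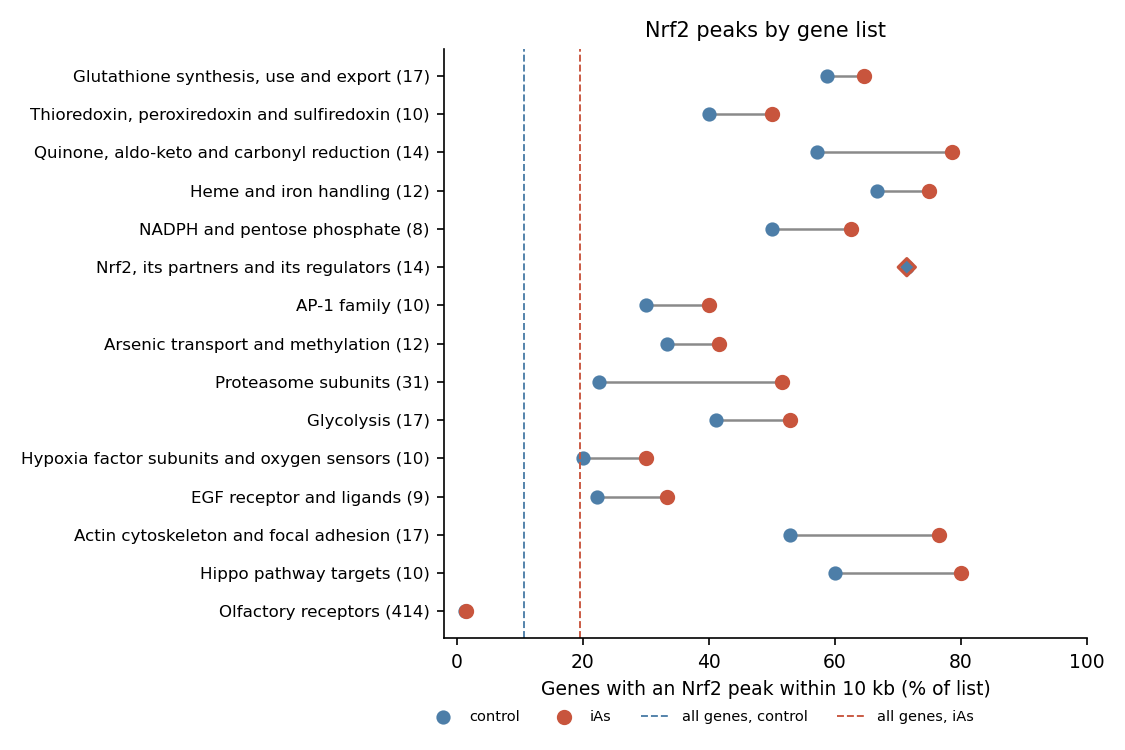
Share of the genes of each list with an Nrf2 peak in the gene body or within 10 kb (x axis, %), in control cells (blue) and with iAs (red), with the number of genes in brackets. Dashed lines mark all protein-coding genes, at 10.6 and 19.6%, and the diamond marks a list with the same count in both. The proteasome list has 7 genes in control cells and 16 with iAs, of 31, and the olfactory receptors lie under both lines.

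Clusters of Nrf2 peaks were more frequent in the full iAs list, and not among its widest peaks. Peaks with a neighbour of the same list within 10 kb made up 21.5% (20.1 to 23%) of the control list, in 317 clusters, and 37.1% (36.1 to 38.2%) of the iAs list, in 1190 clusters. Clusters of 3 or more numbered 47 and 323. The iAs list is also longer, and the median distance to the next peak was 89.9 kb in it against 312 kb in the control list. How much of the clustering goes with the length of the list was not tested. When as many of the widest iAs peaks as control peaks were taken, 19.8% were in clusters, below the control share. Of the 1190 iAs clusters, 694 joined shared and iAs-only peaks, 363 held iAs-only peaks alone and 133 shared peaks alone. Among the 5 largest iAs clusters were 1 of 8 peaks over 20.8 kb that spans C11orf68, DRAP1 and FOSL1, with 3 control peaks, and clusters of 7 iAs peaks at HMOX1, over 15.2 kb with 2 control peaks, and at SUSD1, over 33.2 kb with 4.

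The iAs-only peaks were spread over all chromosomes that held peaks. The ratio of iAs to control peaks ran from 2.1 on chromosome 13 to 2.97 on chromosome 4, and the share of iAs-only peaks from 58.0% on chromosome 5 to 68.2% on chromosome 4. Their Wilson intervals, 53.7 to 62.2% and 61.8 to 74.0%, overlapped slightly. Among the 5 widest iAs peaks were those nearest to RXRA, ASPH, EID3 and C2CD2, of 3071 to 3573 bp, each over at least 1 control peak. The peak nearest to EID3 is the one of 3356 bp in intron 3 of TXNRD1.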

How the data were processed

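Nrf2 and HIF1α ChIP and input DNA were sequenced in BEAS-2B cells. Per the submitters' processing notes, reads were aligned with BWA to hg19 and peaks were called with MACS2 2.1.0, and the methods name MACS or SICER without saying which gave each list. By the methods, the tags of the samples in a group were down-sampled to the number of the smallest sample. Neither that number nor the samples of each group are given, so the depth per sample is unknown. The authors deposited 1 list of intervals with start and end in bases and the library beside each, and no height, score or p-value. The 21088 merged intervals were left out. Groups came from the sample labels, and 0 intervals fell outside the chromosomes of GRCh37.

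Overlap was at least 1 bp, clusters joined peaks within 10 kb, and genes were the protein-coding genes of GENCODE 44 lifted to GRCh37 with 10 kb around them. Shares carry 95% Wilson intervals, medians carry order-statistic intervals, and no test was run. The steps were tested on simulated data (Python 3.11.15, NumPy 2.4.6, SciPy 1.17.1, matplotlib 3.10.9). Genes named in the text were the 16 Nrf2 genes, the members of the gene lists, and those at the widest peaks, the largest and smallest ratios, the largest clusters and the highest peak counts. Members and lists were chosen with earlier results of these data known. Alternatives changed the overlap rule, the number or width of peaks, the cluster and gene distances and the motif window. Some genes are not reported here.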

Additional observations from a re-analysis of the deposited data

How the results depend on the processing

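No paired analysis was possible because each group holds 1 library, and no library could be left out for the same reason. The limits of the data are the single library on each side, the unknown depth, and interval widths as the only measure of size. The cause of the differences between settings was not tested. With a reciprocal overlap of 50%, 60.6% of the control peaks had an iAs peak and 74.9% of the iAs peaks had no control peak, and the 1919 pairs had a median ratio of 1.40, with 88.4% wider with iAs. With centres within 200 bp the shares were 84.7 and 64.9%, and with a gap of up to 1 kb allowed 56.6% of the iAs peaks had no control peak. With widths divided by the median of their own list, the ratio was 1.51 and 87.6% of the pairs were wider with iAs. With as many of the widest iAs peaks as control peaks, 73.1% of the control peaks had an iAs peak, 30.0% of the iAs peaks had no control peak, 19.8% of the iAs peaks were in clusters, 2165 genes had an iAs peak and 455 had one without a control peak, against 432 the other way. The wider 50% of each list held 1602 and 3872 peaks, and 96.0% of those control peaks had an iAs peak. In clusters were 16.5% of the control and 29.9% of the iAs peaks at 5 kb, and 29.5 and 49.1% at 25 kb. Within 50 kb, 4026 genes had a control peak, 7058 an iAs peak and 3140 an iAs peak alone.

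Motif shares followed the window. In the order of shared control, shared iAs and iAs-only peaks, windows of 50 bp on each side held TGACTCAGC in 16.7, 11.5 and 8.70%, TGACNNNGC in 28.9, 21.4 and 18.5%, TGACTCA in 33.5, 24.9 and 24.2% and CATTCC in 12.2, 11.0 and 11.5%. For control-only peaks the last 3 motifs were in 9.30, 14 and 12.8%. In the whole interval the shares were 30.3, 31.8 and 15.5% for TGACTCAGC and 53.2, 58.1 and 35.6% for TGACNNNGC. They were 60.1, 64.7 and 43.4% for TGACTCA and 33.8, 44.9 and 27.8% for CATTCC. Shared iAs peaks, which have the largest median width, then had the highest shares of these classes. Among the wider 50% of a class, TGACTCAGC was in 27.1% of the shared control and 14.7% of the iAs-only peaks, TGACNNNGC in 31.6% of the iAs-only peaks, TGACTCA in 45.8% of the shared control, 34.4% of the shared iAs and 37.7% of the iAs-only peaks, and CATTCC in 19.7, 16.7 and 21.1%. For TGACTCA the shared iAs and iAs-only peaks thus changed order, and for CATTCC the iAs-only peaks then had the highest share of these 3 classes.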

Other observations

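Some Nrf2 peaks lay on tandem arrays of the ARE. These sites were chosen after their values were seen, by counting TGACTCAGC in the whole interval. Most peaks with the sequence held 1 copy, and 4 control peaks and 9 iAs peaks held 3 or more. The control peak of 1705 bp nearest to the start site of DBNDD1, among the 5 widest of its list, lies in the pseudogene AFG3L1P on chromosome 16 (90060970 to 90062674) and held 39 copies, all on the plus strand, within 1329 bp. The copies were spaced by 14 to 112 bp with a median of 27 bp, and the iAs peak at this site was 2876 bp wide. A peak in an intron of HTRA3 held 5 copies spaced by exactly 26 bp, and was 381 bp wide in control and 1530 bp in iAs-treated cells. Another array, upstream of ZNF469, had its copies 46 bp apart, with 3 in one control peak and 7 in the iAs peak of 2522 bp that spanned 3 control peaks. The sequences below, from GRCh37 with TGACTCAGC in capitals, show the HTRA3 array and the first part of that in AFG3L1P.
HTRA3, chr4:8305444-8305586, plus strand: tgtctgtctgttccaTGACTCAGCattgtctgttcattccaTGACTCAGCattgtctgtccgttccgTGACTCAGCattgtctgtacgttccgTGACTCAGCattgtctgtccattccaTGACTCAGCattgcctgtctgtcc
AFG3L1P, chr16:90061271-90061510, plus strand: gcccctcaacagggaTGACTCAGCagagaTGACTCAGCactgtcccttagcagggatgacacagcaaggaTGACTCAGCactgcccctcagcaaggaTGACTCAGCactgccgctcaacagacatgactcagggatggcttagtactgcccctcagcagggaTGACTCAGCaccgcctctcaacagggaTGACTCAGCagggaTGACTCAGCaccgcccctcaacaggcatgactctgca

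Of the iAs-only peaks, 4 held 3 or more copies of TGACTCAGC. Among them were peaks in ADAMTS17 with 3 copies, at a site -391 kb from the start site of CDH5 with 3 and in the antisense gene of ZEB1 with 3. GC content of the windows was 46.3% at the median for shared peaks of either list and 47.8% for iAs-only peaks, against 42.8 to 43.8% in the windows 5 kb away.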
